A study of Mus musculus with 9 samples.

Results

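Foxp3, Il2ra, Ikzf2, Tnfrsf18, Il10 and Maf were followed across bone marrow T-cells of 9 mice, to ask whether the cytokine gene Il10 moves with the regulatory T-cell genes or apart from them, also relative to Cd4. These 6 genes were chosen with measured values of these same mice known, so their levels and fold changes are given as a description, with no p-value. Whether a member passed the threshold of the fit over the whole panel is stated as part of that description, and nothing rests on it. Of the 785 probes of the panel, 4 matched a member through their RefSeq transcript, namely Foxp3 (NM_054039.2), Il2ra (NM_008367.2), Tnfrsf18 (NM_009400.3) and Il10 (NM_010548.2). No probe could be matched to Ikzf2 or Maf, and both were not analysed here. Each probe was compared only with itself across mice, since the count of a probe also depends on how well it hybridizes.

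The mice were female wild-type C57BL/6 animals of 6 to 8 weeks in 3 groups of 3. The first had no leukemia. The other groups received luciferase-expressing BCR-ABL1+ Arf-/- B-ALL cells that also carried GFP, by tail vein and without irradiation, and these cells come from a single leukemia line. One of them was given recombinant IL-12 (rIL-12) at 1 µg per dose from day 3, and the other was given vehicle, which the sample labels list as no treatment. T-cells were isolated at day 7 with a pan-T-cell kit, and their RNA was read with the nCounter Immune Exhaustion panel for mouse, in which each count is a number of color-coded barcodes of 1 probe in 1 mouse. Totals ran from 257613 to 711748 counts per mouse, and mice of 1 group differed by more than counting error. A viral probe with no mouse target had between 53 and 114 counts and marks how high background can reach. Foxp3 was under it in 2 of the 9 mice, Il2ra in 3, Tnfrsf18 in 0 and Il10 in 7. Values are normalized counts (TMM scaling in edgeR) unless raw counts are named. Past the threshold means a change of at least 1.5-fold whose p, from edgeR's quasi-likelihood test and adjusted with Benjamini-Hochberg across the whole panel, was under 0.05.

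Regulatory T-cells are CD4 T-cells that restrain other immune cells. Their identity is set by the transcription factor FOXP3, and they carry the alpha chain of the IL-2 receptor (CD25, encoded by Il2ra), which lets them take up IL-2 that conventional T-cells make. IL-2 signals through STAT5, which helps to keep Foxp3 expressed. GITR, encoded by Tnfrsf18, is a costimulatory receptor of the TNF receptor family that is high on regulatory T-cells and also appears on activated T-cells. IL-10 is a suppressive cytokine that regulatory T-cells share with other sources, among them FOXP3-negative type 1 regulatory cells, effector T-cells under strong stimulation, and myeloid cells. Foxp3 and Il10 are thus not tied to the same cells.

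The start regions of Foxp3 and Tnfrsf18 are shown because these genes had the most similar pattern among the members, and because both are linked to the IL-2 to STAT5 pathway. Each stretch is the 250 bases before an annotated transcript start in RefSeq on build GRCm38.p6, and capitals mark matches to TTCNNNGAA, the palindrome that STAT5 binds, which reads the same on both strands. The Foxp3 window lies at chrX:7579426-7579675 on the plus strand, and the Tnfrsf18 window at chr4:156026072-156026321 on the plus strand.
Foxp3: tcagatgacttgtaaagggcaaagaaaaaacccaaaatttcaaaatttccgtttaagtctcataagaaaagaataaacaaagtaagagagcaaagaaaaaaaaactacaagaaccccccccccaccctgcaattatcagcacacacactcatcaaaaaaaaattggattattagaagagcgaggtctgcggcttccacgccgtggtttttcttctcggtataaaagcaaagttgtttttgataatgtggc
Tnfrsf18: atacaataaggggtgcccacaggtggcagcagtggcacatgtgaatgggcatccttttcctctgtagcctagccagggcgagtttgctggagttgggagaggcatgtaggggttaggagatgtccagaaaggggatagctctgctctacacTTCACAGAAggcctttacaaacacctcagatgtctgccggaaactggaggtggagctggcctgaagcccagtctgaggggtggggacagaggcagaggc
The Tnfrsf18 window held TTCACAGAA, 99 to 91 bases before the start. The Foxp3 window printed here held no match, while the window of a second annotated Foxp3 start, at chrX:7580233-7580482, held TTCCAAGAA, 139 to 131 bases before that start. The window of Il2ra held none. Of 32851 mouse promoters in the same table, 2306 (7.02%) held the palindrome. A match is only a stretch of letters and was not tested for binding.

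Foxp3 was lowest in the rIL-12 treated mice. Mice without leukemia had 164.5, 186.1 and 163.3 normalized counts of it, those given vehicle 120.1, 133.0 and 239.0, and those given rIL-12 39.8, 45.9 and 103.5. Every rIL-12 treated mouse lay below every mouse of the other groups, whereas vehicle and no leukemia overlapped, with vehicle mouse 3 the highest of all 9. The means were 171 ± 12.8 (SD, n = 3 mice) without leukemia, 164 ± 65.2 (SD, n = 3) with vehicle and 63.1 ± 35.1 (SD, n = 3) with rIL-12. The log2 fold change of rIL-12 was -1.45 with a standard error of 0.34 against no leukemia and -1.36 (standard error 0.34) against vehicle, and that of vehicle against no leukemia was -0.08 (standard error 0.32). Raw counts were as low as 46 and 57 in rIL-12 treated mice 1 and 2, under the viral probe of those mice, so that background can be part of these values. Without rIL-12 treated mouse 2, the difference from no leukemia was -1.26 and no longer past the threshold. The difference from vehicle was not past it without vehicle mouse 2 (-1.53), vehicle mouse 3 (-1.01), rIL-12 treated mouse 1 (-1.12) or mouse 2 (-1.18). The whole panel had 108 probes past it for rIL-12 against vehicle, and 0, 4, 62 and 0 without these mice in turn.

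Tnfrsf18 differed in the same direction as Foxp3 with rIL-12, by less and without passing the threshold. Its normalized counts were 350.2, 301.4 and 354.7 without leukemia, 288.7, 368.4 and 414.4 with vehicle, and 136.0, 207.8 and 299.0 with rIL-12. The rIL-12 treated mice were all below the mice without leukemia but overlapped the vehicle group, because mouse 3 was above vehicle mouse 1. The log2 fold change was 0.09 (standard error 0.25) for vehicle and -0.65 (standard error 0.25) for rIL-12 against no leukemia, and -0.73 (standard error 0.25) for rIL-12 against vehicle, none of them past the threshold. It was past the threshold without rIL-12 treated mouse 3, at -0.96 against no leukemia and -1.04 against vehicle. With a replicate block it was also past it in these comparisons, at -0.71 and -0.77, and against vehicle it was past it as well with housekeeping scaling (-1.11), total count scaling (-0.93) and DESeq2.

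Il2ra had another order. It was 167.7, 129.5 and 158.5 without leukemia, 74.7, 73.9 and 105.3 with vehicle, and 93.6, 216.7 and 131.4 with rIL-12. Each vehicle treated mouse was below each mouse without leukemia, while the rIL-12 treated mice spanned both of the other groups and held the highest value, in mouse 2. The log2 fold changes were -0.86 (standard error 0.28) for vehicle against no leukemia, -0.04 (standard error 0.27) for rIL-12 against no leukemia and 0.81 (standard error 0.28) for rIL-12 against vehicle, none past the threshold. Without rIL-12 treated mouse 1 or mouse 3 the last of these was past it, at 1.06 and 0.89. Foxp3 and Il2ra thus had opposite signs between vehicle and rIL-12, and the number of Il2ra counts per Foxp3 count was 0.623, 0.557 and 0.442 with vehicle against 2.333, 4.687 and 1.269 with rIL-12, with 1.019, 0.696 and 0.970 in mice without leukemia.

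**Figure D1:**
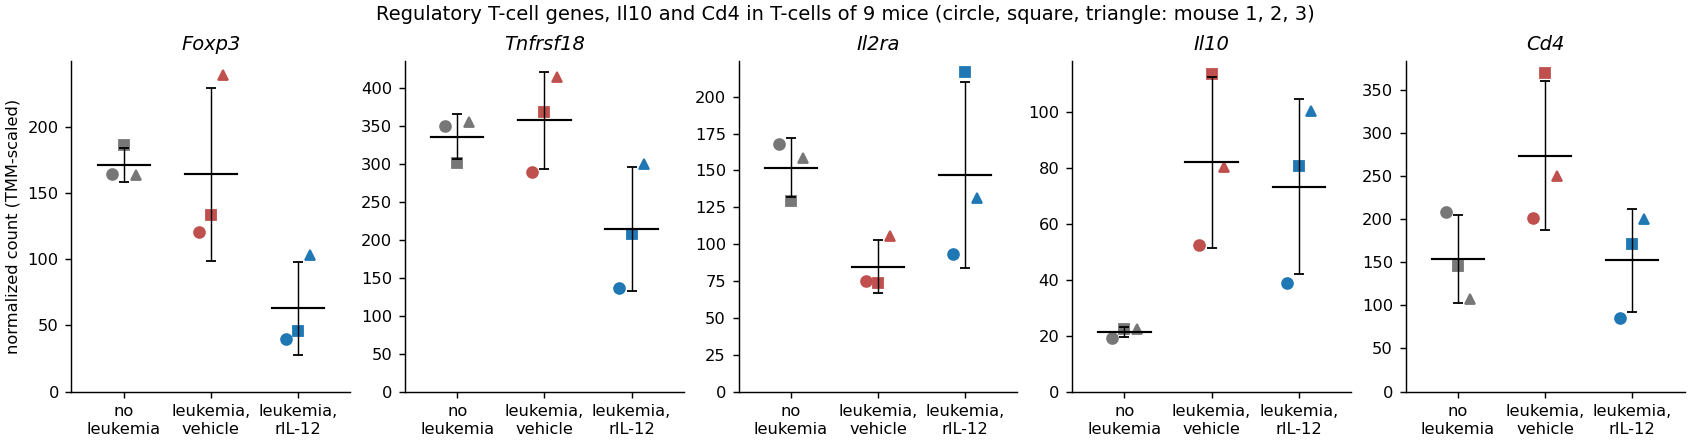
Normalized counts (TMM-scaled, each y axis from 0) of the 4 members measured and of Cd4 in T-cells of each mouse, by group. Circle, square and triangle are mice 1, 2 and 3 of a group, the horizontal bar is the mean and the whiskers are the SD of 3 mice. Foxp3 was lowest in the 3 rIL-12 treated mice (39.8 to 103.5), whereas Il10 was lowest in the 3 mice without leukemia (19.1 to 22.3).

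Il10 was higher in all mice with leukemia, with or without rIL-12. Its normalized counts were 19.1, 22.3 and 22.2 without leukemia, 52.5, 113.6 and 80.2 with vehicle, and 39.0, 80.6 and 100.4 with rIL-12. No mouse with leukemia overlapped the mice without it, and the vehicle and rIL-12 treated mice overlapped one another widely. The log2 fold change was 1.91 (standard error 0.37) with vehicle and 1.73 (standard error 0.37) with rIL-12, and the difference between these treatments was -0.17 (standard error 0.33). Background bears on these values, since raw counts were 18 to 23 without leukemia, 48 to 123 with vehicle and 45 to 100 with rIL-12. When every count below the viral probe was raised to that probe, the log2 fold change of Il10 was 0.21 with vehicle and 0.03 with rIL-12, neither past the threshold. The vehicle difference was also not past it without no leukemia mouse 1 (1.80) or mouse 3 (1.92), or vehicle mouse 2 (1.59) or mouse 3 (1.93), nor after housekeeping scaling (2.02). The whole panel had 21 probes past it for vehicle against no leukemia. That number was 0, 0, 2 and 0 without these mice in turn and 3 with housekeeping scaling.

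Counted over the members measured, vehicle against no leukemia put 1 of 4 higher (Il10) and 0 of 4 lower past the threshold, beside 1.27% and 1.40% of all probes, and edgeR gave 1 lower at an unadjusted p under 0.05 where DESeq2 called 1 lower. In that comparison 1 was higher (Il10) and 1 lower (Il2ra) with no overlap between the groups, beside 12.7% and 9.81% of all probes. For rIL-12 against no leukemia, 1 was higher (Il10) and 1 lower (Foxp3) past the threshold, beside 8.92% and 8.66%, and 1 was higher and 2 lower (Foxp3 and Tnfrsf18) with no overlap, beside 18.9% and 16.7%. For rIL-12 against vehicle, 0 were higher and 1 lower (Foxp3) past the threshold, beside 8.54% and 5.22%, where edgeR gave 1 higher at an unadjusted p under 0.05 and DESeq2 called 1 higher. In this last comparison 0 were higher and 1 lower (Foxp3) with no overlap, beside 15.4% and 15.3%. Since the members were chosen on these mice, nothing is read from these counts.

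Il10 and Foxp3 were then set against each other within each mouse, which needs no scaling between mice. Only the change of such a ratio between groups can be read, because the probes may hybridize unequally. The Il10 to Foxp3 ratio of raw counts was 0.119, 0.122 and 0.139 in mice without leukemia, 0.439, 0.855 and 0.338 with vehicle, and 0.978, 1.748 and 0.970 with rIL-12. The 3 groups did not overlap at any point, and the ratio stepped up from no leukemia to vehicle and from vehicle to rIL-12. On the log2 scale the difference was 1.99 with vehicle and 3.23 with rIL-12 against no leukemia, and 1.24 for rIL-12 against vehicle, beside SDs within groups of 0.495, 0.354 and 0.597. The first step came with the higher Il10 and the second with the lower Foxp3. With each mouse left out in turn these differences stayed within 1.61 to 2.28, 2.95 to 3.37 and 0.95 to 1.62, and with counts raised to the viral probe they were 0.45, 1.004 and 0.55.

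Relative to Cd4, the coreceptor of helper and regulatory T-cells, Foxp3 was lower and Il10 higher with rIL-12 than without leukemia. Cd4 itself (NM_013488.2) had 208.0, 145.7 and 107.3 normalized counts without leukemia, 200.9, 369.3 and 250.7 with vehicle, and 84.9, 170.8 and 200.7 with rIL-12, and no comparison of it was past the threshold in edgeR's quasi-likelihood test (adjusted p of 0.223, 0.976 and 0.0856). The Foxp3 to Cd4 ratio of raw counts was 0.791, 1.277 and 1.520 without leukemia, 0.599, 0.361 and 0.954 with vehicle, and 0.472, 0.271 and 0.517 with rIL-12. Groups without leukemia and with rIL-12 did not overlap, at a log2 difference of -1.51, while the vehicle group overlapped both, at -0.97 from no leukemia and with rIL-12 at -0.55 from vehicle. The Il10 to Cd4 ratio was 0.094, 0.156 and 0.211 without leukemia, 0.263, 0.308 and 0.322 with vehicle, and 0.462, 0.473 and 0.501 with rIL-12. Here the groups were in the same order as for Il10 to Foxp3 and did not overlap, and the rIL-12 treated mice lay close together although their Il10 counts alone spread from 39.0 to 100.4. The log2 differences were 1.03, 1.72 and, for rIL-12 against vehicle, 0.69 with an SD within groups of 0.117. With counts raised to the viral probe, which lifts Il10 most, the Il10 to Cd4 difference was -0.52 with vehicle and 0.13 with rIL-12 against no leukemia. The Foxp3 to Cd4 difference was then -0.87 for rIL-12 against no leukemia and, with its sign turned, 0.10 for rIL-12 against vehicle.

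The CD3 chains Cd3d, Cd3e and Cd3g, which every T-cell carries, give another base. They fell with rIL-12 against no leukemia, and Cd3d for example went from 1490 ± 391 (SD, n = 3) without leukemia to 814 ± 229 (SD, n = 3) with vehicle and 456 ± 143 (SD, n = 3) with rIL-12. Against the geometric mean of the raw counts of these chains, Foxp3 no longer separated any groups. Its ratio was 0.129, 0.263 and 0.154 without leukemia, 0.190, 0.237 and 0.519 with vehicle, and 0.165, 0.129 and 0.223 with rIL-12, and the log2 differences were 0.72 with vehicle and -0.04 with rIL-12 against no leukemia and -0.77 for rIL-12 against vehicle. With counts raised to the viral probe the last of these was -0.12, and the sign turned for rIL-12 against no leukemia, at 0.60. On this base Il10 in both leukemia groups lay apart from no leukemia, where its raw counts were under the viral probe, while vehicle and rIL-12 overlapped. Its ratio was 0.015, 0.032 and 0.021 without leukemia, 0.083, 0.203 and 0.176 with vehicle, and 0.162, 0.226 and 0.217 with rIL-12. Cd4 itself was higher against these chains, by 1.69 with vehicle and 1.47 with rIL-12 on the log2 scale, without overlap with no leukemia. The 2 bases thus gave unlike Foxp3 ratios. Cd8a and Cd8b1 were at -1.68 and -2.15 with vehicle and at -2.55 and -3.12 with rIL-12 against no leukemia. In these bulk isolates, fewer cells of a type and less RNA per cell cannot be told apart.

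**Figure D2:**
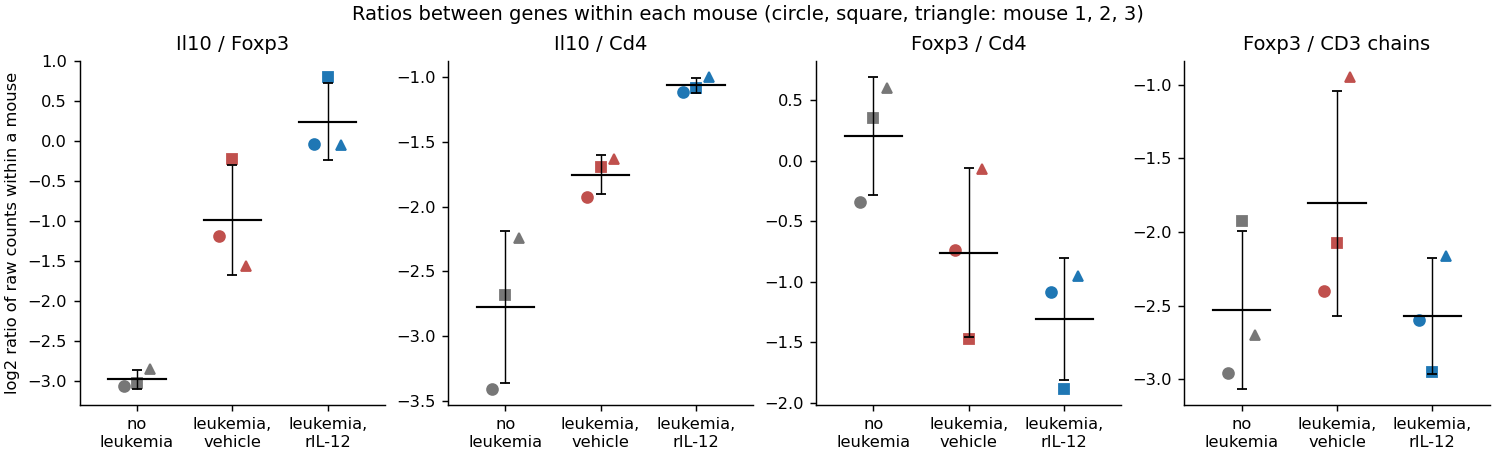
Log2 ratios of raw counts between genes within each mouse, for Il10 to Foxp3, Il10 to Cd4, Foxp3 to Cd4 and Foxp3 to the geometric mean of the 3 CD3 chains. Circle, square and triangle are mice 1, 2 and 3 of a group, the bar is the mean and the whiskers are the SD of 3 mice. The first and second ratios separated all 3 groups, Foxp3 to Cd4 separated no leukemia from rIL-12, and Foxp3 to the CD3 chains separated none.

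Other surface and effector genes of regulatory T-cells did not move as a block. Of 19 listed genes, 14 were measured. With vehicle, 3 rose against no leukemia and 0 fell, beside 1.27% and 1.40% of all probes. The median log2 fold change of the list was 0.26 beside 0.05 over all probes. The 3 were Lag3 and Tigit, coinhibitory receptors that regulatory T-cells share with exhausted T-cells, and Tnfrsf9, the costimulatory receptor 4-1BB, which went from 67.9 ± 4.45 to 154 ± 64.0 normalized counts (SD, n = 3 each; adjusted p = 0.0414, edgeR's quasi-likelihood test) and was lost without 6 of the 9 mice (0.83 to 1.42). Lag3 (1.72 to 2.34) and Tigit (1.28 to 1.85) were each lost without no leukemia mouse 1 or 3 or vehicle mouse 2 or 3. Without any of these mice nearly all calls of the panel were lost too. Of the list, none of the 3 was past the threshold with housekeeping scaling. Raw counts of Tnfrsf9 were under the viral probe in 5 mice. It was not past the threshold with counts raised to that probe (0.65) or with total count scaling (1.19). At an unadjusted p under 0.05, edgeR gave 5 genes of the list higher and 1 lower, and DESeq2 called 4 higher and 1 lower. Gzmb, which encodes granzyme B, was at 0.91 with an adjusted p of 0.0501 from edgeR, with counts under the viral probe in 7 mice. Itgae, the integrin alpha chain CD103, was at -1.51 with an adjusted p of 0.0855 from edgeR, and with a replicate block it was past the threshold, at -1.65.

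With rIL-12 against no leukemia, 3 genes of this list rose and 2 fell, beside 8.92% and 8.66% of all probes. The median of the list was 0.22 beside 0.02 over all probes. The genes that rose were Entpd1, which encodes the ATP-degrading enzyme CD39 (log2 fold change 0.67, adjusted p = 0.0430, edgeR), Il1rl1, the IL-33 receptor ST2 (0.67, adjusted p = 0.0207, edgeR), and Tigit (1.11, adjusted p = 0.0456, edgeR). Those that fell were Nt5e, the AMP-degrading enzyme CD73 that acts after CD39 (-1.41, adjusted p = 0.00215, edgeR), and Itgae (-2.66, adjusted p = 0.00103, edgeR), which CD8 T-cells carry as well. The CD8 genes moved with Itgae, as Cd8a and Cd8b1 were at -2.55 and -3.12 in this comparison, and their part in the Itgae result was not tested. Entpd1 and Nt5e thus moved in opposite directions. With any of the 9 mice left out in turn, Nt5e and Itgae stayed past the threshold, and with counts raised to the viral probe they did so at -0.61 and -0.97, since Nt5e was under that probe in 6 mice and Itgae in 5, whereas Entpd1 (0.54 to 0.82) was lost without any 1 of the mice without leukemia, vehicle mouse 2 or rIL-12 treated mouse 2. Tigit (0.89 to 1.40) was lost without 5 of the 9 mice and Il1rl1 (0.55 to 0.79) without no leukemia mouse 1 or 3 or rIL-12 treated mouse 2. Under housekeeping or total count scaling the 3 genes that rose were not past it. With counts raised to the viral probe Entpd1 was not past it either, at 0.45.

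Between rIL-12 and vehicle, 1 gene of the list rose and 3 fell, beside 8.54% and 5.22% of all probes. The median of the list was -0.34 beside -0.08 over all probes. Tnfrsf9 fell from 154 ± 64.0 with vehicle to 73.5 ± 13.8 with rIL-12 (adjusted p = 0.0236, edgeR), Gzmb, the cytotoxic protease granzyme B, from 104 ± 28.5 to 58.1 ± 2.22 (adjusted p = 0.0259, edgeR), and Nt5e from 85.6 ± 23.0 to 45.3 ± 5.73 (adjusted p = 0.0423, edgeR; SD, n = 3 each throughout). Il1rl1 rose by 0.59 on the log2 scale (adjusted p = 0.0459, edgeR). Tnfrsf9 (-1.31 to -0.72) was lost without 5 of the 9 mice and Gzmb (-0.99 to -0.62) without 6. Nt5e (-1.06 to -0.67) was lost without 7 and Il1rl1 (0.47 to 0.68) without 8. Vehicle mice 2 and 3 and rIL-12 treated mouse 2 were among them for each gene. The whole panel had 108 probes past the threshold in this comparison, and 0, 4 and 0 without those mice in turn. The losses without those mice were thus not particular to the genes named. Each of these genes was also lost without no leukemia mouse 1 or rIL-12 treated mouse 1, where 70 and 62 probes of the panel stayed past the threshold. Raw counts of Gzmb were under the viral probe in 7 of the 9 mice and those of Nt5e in 6, and with counts raised to that probe neither was past the threshold, at -0.34 and -0.19. Il1rl1 was not past it with housekeeping scaling (0.17) or total count scaling (0.39). Ctla4, the inhibitory receptor of regulatory T-cells, was at 0.80, 0.37 and -0.43 in the 3 comparisons and past the threshold in none, with counts under the viral probe in 6 mice. Icos, Tnfrsf4, Tgfb1, Klrg1 and Il10ra were not past it in any comparison either.

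**Figure D3:**
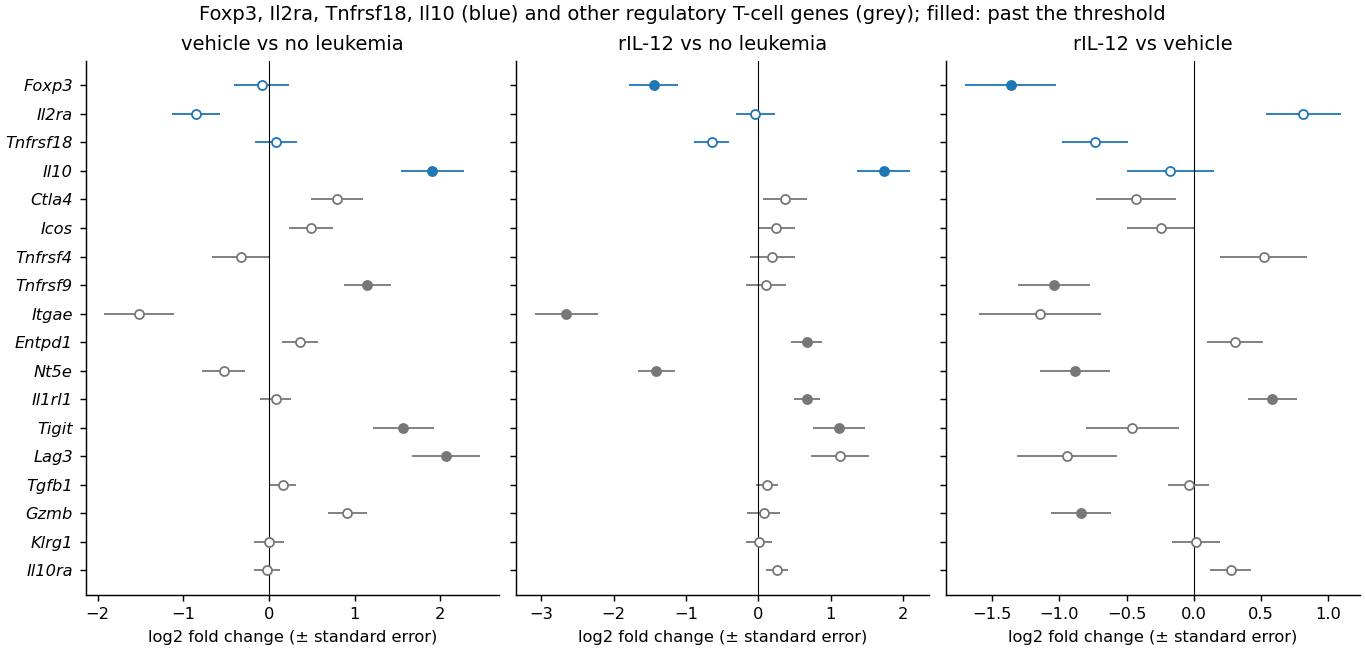
Log2 fold changes (x axis, with a different range in each panel) of Foxp3, Il2ra, Tnfrsf18 and Il10 (blue) and of the 14 other regulatory T-cell genes measured (grey) in the 3 comparisons, from edgeR with all 9 mice in 1 model. Whiskers are the standard error, and filled points are past the threshold. Foxp3 lay at -1.45 and Il10 at 1.73 in the comparison of rIL-12 with no leukemia.

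The pathway that carries IL-2 to Foxp3 was measured with 7 of 10 listed genes besides Il2ra. With vehicle, 0 were past the threshold, beside 1.27% higher and 1.40% lower of all probes. At an unadjusted p under 0.05 edgeR gave 1 higher and 2 lower, and DESeq2 called 2 lower. Bcl2, the survival gene downstream of STAT5, fell with rIL-12 by 1.80 on the log2 scale against no leukemia (adjusted p = 0.000681, edgeR) and by 0.89 against vehicle (adjusted p = 0.0377, edgeR), the second lost without 7 of the 9 mice (-1.24 to -0.66). In edgeR no other gene of this pathway passed in these comparisons, while DESeq2 called 2 lower between vehicle and rIL-12. Stat5a was at -0.08, -0.14 and -0.06 in the 3 comparisons, and Jak3, the kinase of the common gamma chain, at 0.75, -0.11 and -0.87 with no call. Il2 itself was under the viral probe in all 9 mice, as was Socs1, so that a change of these genes could not be read at this depth.

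For regulators and companions of Il10 in T-cells, 17 of 21 listed genes were measured. With vehicle, where Il10 was higher, 0 of them were past the threshold in edgeR, beside 1.27% higher and 1.40% lower of all probes. At an unadjusted p under 0.05 edgeR gave 2 higher and 1 lower, and DESeq2 called 1 higher. With rIL-12 against no leukemia, 3 rose and 3 fell, beside 8.92% and 8.66% of all probes. The genes that rose were Stat3, the factor that IL-6, IL-21, IL-27 and IL-10 signal through (0.89, adjusted p = 0.00629, edgeR), Il21, a helper T-cell cytokine (1.81, adjusted p = 0.00782, edgeR), and Ifng, interferon gamma, which some IL-10-producing effector cells make as well (1.39, adjusted p = 0.0113, edgeR). Il27ra, the IL-27 receptor chain (-0.70, adjusted p = 0.00768, edgeR), Nfatc2 (-0.79, adjusted p = 0.0309, edgeR) and Junb (-0.60, adjusted p = 0.0497, edgeR), factors of T-cell activation, fell. In this comparison Stat3 kept its call without any 1 mouse, Il21 lost it without no leukemia mouse 1 and Il27ra without no leukemia mouse 3, and Ifng (0.92 to 1.73) lost it without no leukemia mouse 1 or rIL-12 treated mouse 2. Nfatc2 (-0.96 to -0.64) lost it without 4 of the mice and Junb (-0.78 to -0.49) without 7. Raw counts of Il21 were under the viral probe in 8 of the 9 mice, and with counts raised to it Il21 was at 0.22 and not past the threshold. Between rIL-12 and vehicle, Stat3 rose by 0.89 on the log2 scale (adjusted p = 0.0151, edgeR) and Junb fell by 0.83 (adjusted p = 0.0181, edgeR), while Il10 itself was at -0.17. Here Stat3 (0.71 to 1.01) was lost without vehicle mouse 2 or 3 or rIL-12 treated mouse 2 and with housekeeping scaling (0.48), and Junb (-1.01 to -0.67) without vehicle mouse 2 or 3 or rIL-12 treated mouse 1 or 2. Stat3 was at 830 ± 161 normalized counts in mice that had no leukemia, 830 ± 59.4 given vehicle and 1538 ± 327 given rIL-12 (SD, n = 3 each), so that it did not have the order of Il10. Prdm1, Batf, Irf4, Ahr, Nfil3, Tbx21 and Gata3 were not past the threshold in any comparison. Raw counts of Prdm1 were under the viral probe in all 9 mice, those of Ahr in 8 and those of Tbx21 in 7. A change of these 3 genes could therefore hardly be read. With a replicate block Gata3 was past the threshold for rIL-12 against no leukemia, at -0.60.

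The receptor side of IL-10 was measured with all 6 listed genes. Il10ra, the chain that binds IL-10, had 318 ± 9.45 normalized counts in mice that had no leukemia, 313 ± 19.9 given vehicle and 379 ± 46.1 given rIL-12, and Il10rb, the chain shared with related receptors, had 641 ± 86.9, 539 ± 35.1 and 562 ± 74.3 (SD, n = 3 each). Neither was past the threshold in any comparison. Tyk2, a kinase of this receptor and of the IL-12 receptor, fell by 0.75 on the log2 scale between vehicle and rIL-12 (adjusted p = 0.0411, edgeR), which was lost without 7 of the 9 mice (-0.96 to -0.59).

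Patterns over the 9 mice were compared by the root mean square difference of log2 normalized counts, each gene centred on its own mean, over the 750 other probes with a symbol. The genes nearest to Il10 were Tigit (0.306), Il12rb1, a chain of the IL-12 receptor (0.430), Lag3 (0.437), Il21 (0.517) and the ectoenzyme Cd38 (0.517). Cd4 came at rank 45 (0.762), Tnfrsf18 at rank 551, Il2ra at rank 684 and Foxp3 at rank 723 (1.39), close to the far end. Nearest to Foxp3 were Pglyrp2 (0.387), the kinase Mapk11 (0.417), Zap70, the kinase of the T-cell receptor (0.423), the activation factor Nr4a1 (0.430) and Cd72 (0.432). Tnfrsf18 followed at rank 6 (0.440), with Cd4 at rank 259, Il2ra at rank 574 and Il10 at rank 732. Seen from Tnfrsf18, however, Foxp3 came only at rank 194, not far from Cd4 at rank 234 (0.457). Likeness here is a description over 9 mice that share their scaling. Raw counts of Mapk11 were under the viral probe in 8 mice, and those of Cd38 in 6.

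**Figure D4:**
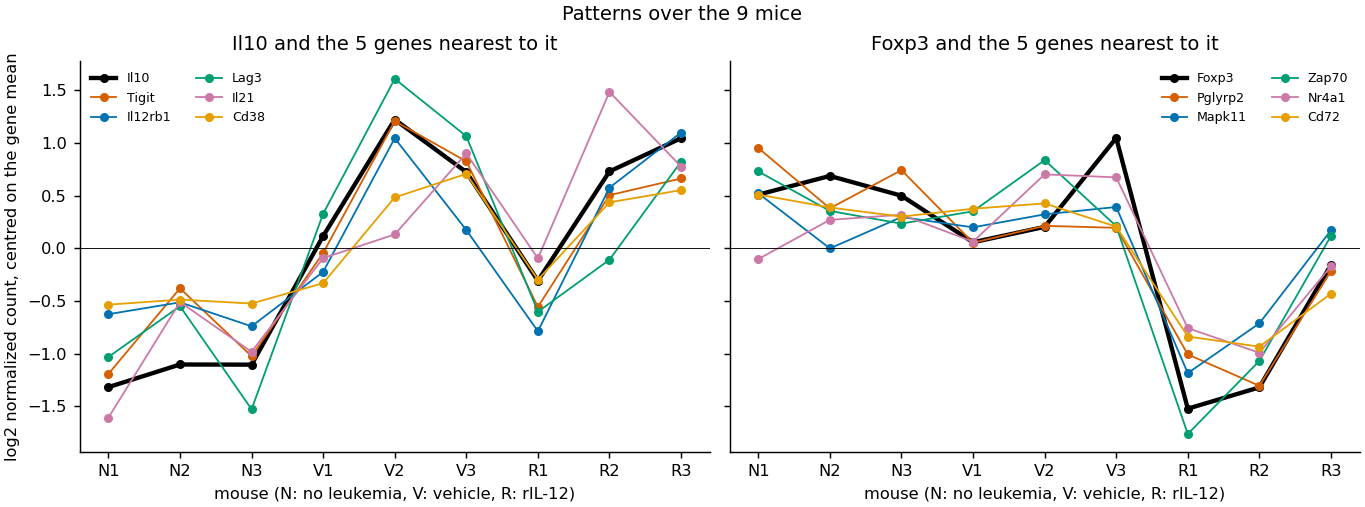
Log2 normalized counts centred on each gene's mean (y axis) in the 9 mice (x axis) for Il10 (left) and Foxp3 (right), each in black with the 5 genes of nearest pattern. N is no leukemia, V vehicle and R rIL-12, and the lines only join points of 1 gene. Il10 and its neighbours were below their own means in the 3 mice without leukemia and also in rIL-12 treated mouse 1, where Il12rb1 (-0.79) was lowest. Foxp3 and its neighbours were low in rIL-12 treated mice 1 and 2, and in mouse 3 Mapk11 (0.17) and Zap70 (0.12) were above their own means.

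Markers of T-cells and of other cells that can make IL-10 moved with some of these results. Of 7 pan T-cell genes measured, 0 fell with vehicle, 7 with rIL-12 against no leukemia and 2 between vehicle and rIL-12. Beside these, 1.40%, 8.66% and 5.22% of all probes fell. With vehicle, 4 of the 7 were lower at an unadjusted p under 0.05 in edgeR and 4 were called lower by DESeq2. The summed normalized counts of the 7 were 4606 to 7524 without leukemia, 3177 to 4464 with vehicle and 1592 to 3125 with rIL-12. Foxp3 was lowest in the rIL-12 treated mice, where these sums were lowest too. The sums were also lower with vehicle than without leukemia, whereas Foxp3 was at -0.08 there. The part of these genes in the Foxp3 result was not tested. Of 4 mast cell and basophil genes measured, 2 (Ms4a2 and Cpa3) rose with vehicle and with rIL-12 against no leukemia, where Il10 was higher too. Of all probes, 1.27% and 8.92% rose in these comparisons. Hdc was at 0.44 and 0.17 with no call, and Il4, under the viral probe in all 9 mice, at -0.09 and -0.40. With housekeeping scaling Ms4a2 was not past the threshold with rIL-12 (0.57). The sums of the 4 were 988 to 1132 without leukemia, 1820 to 2154 with vehicle and 1882 to 2148 with rIL-12. Cpa3 alone had means of 641, 1234 and 1395 in these groups. The sums of 8 myeloid genes were 5031 to 5584 without leukemia, 5463 to 6814 with vehicle and 5454 to 7953 with rIL-12, of which Fcgr1 (1.11) and Cd68 (0.75) rose with rIL-12 against no leukemia and Itgax (-0.65) fell between vehicle and rIL-12. Fcgr1 (0.68 to 1.29) was lost without no leukemia mouse 1 or rIL-12 treated mouse 2. Cd68 (0.55 to 0.95) was lost without 5 of the 9 mice and Itgax (-0.77 to -0.57) without 8. Fcgr1 and Cd68 were not past the threshold with housekeeping scaling. Itgax and the monocyte marker Cd14 were under the viral probe in all 9 mice. With counts raised to that probe Itgax was at -0.18 and not past the threshold, and DESeq2 did not call it. Among B-cell genes, Ms4a1 was under the viral probe in 8 mice, whereas Cd79b, Cd22 and Blk were under it in 0. The mean raw counts of these last genes were 216, 107 and 106. Of 2 plasma cell genes 0 were past the threshold in edgeR, at an unadjusted p under 0.05 or with DESeq2. The part of these cells in the Il10 result was not tested.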

How the data were processed

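T-cell RNA of 9 separate mice was measured. The deposited values are raw whole-number counts for each probe in each mouse, as the authors had them before the nSolver normalization of their methods. Probes were named through RefSeq transcripts (751 of 785), and the other 34 stayed in the tests unnamed. TMM scaling and the quasi-likelihood test of edgeR 4.0.16 in R 4.3.3 were used on all 9 mice in 1 model without a replicate block, with 1 as prior count, and p-values were adjusted over all probes. The steps were tested on simulated data. Ratios were log2 of raw counts with 0.5 added. The members and the gene lists were chosen with earlier results of these data known. The text names the members, Cd4, genes that define a list's cell type, and the 5 probes nearest to Il10 and to Foxp3. It also names each gene past the threshold of the regulatory T-cell, IL-2 to STAT5, Il10 regulator and IL-10 receptor lists. Genes past it in other lists, such as those of pan T-cell, NK cell and housekeeping genes, are not all named. Alternatives were a replicate block, other scalings, a mean count of at least 20, counts raised to the viral probe, prior counts of 0.1 and 10, only the 2 groups compared, other fold thresholds, a ratio pseudocount of 5, DESeq2 1.42.0, the methods' t-test, and leaving out each mouse. Ratios of Foxp3 to the CD3 chains and a list without Itgae were added after seeing the data. P-values measure the spread between mice. A marker of another cell type is not reported here.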

Additional observations from a re-analysis of the deposited data

How the results depend on the processing

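Vehicle against no leukemia put 1 member and 3 other regulatory T-cell genes past the threshold. These counts were 0 and 0 with housekeeping scaling, 2 and 5 with DESeq2, 0 and 0 after adjustment with the methods' t-test, 2 and 5 with its unadjusted p, 2 and 5 with only the 2 groups compared, and 0 members with counts raised to the viral probe; without single mice they ran from 0 to 1 and from 0 to 5. Against no leukemia, rIL-12 put 2 and 5 past it. This became 1 member with counts raised to the viral probe, 0 and 0 with the adjusted t-test, and 2 other genes with housekeeping or total count scaling and 3 at a 2-fold threshold, with 1 to 3 and 2 to 6 without single mice. For rIL-12 against vehicle, with 1 and 4, members came to 2 with the replicate block, housekeeping scaling or total count scaling, 3 with DESeq2 and 0 with either form of the t-test or only the 2 groups; other genes came to 2 with counts raised to the viral probe, 0 with the adjusted t-test or only the 2 groups, and 1 at a 2-fold threshold, with 0 to 3 and 0 to 5 without single mice. The sign of small changes turned: Foxp3 with vehicle was 0.033 with housekeeping scaling and -0.43 to 0.10 without single mice, Tnfrsf18 with vehicle -0.030 to 0.22, Il2ra with rIL-12 against no leukemia -0.43 to 0.20, and Il10 between the treatments -0.45 to 0.13. With counts raised to the viral probe, Il10 minus Foxp3 was 0.45, 1.004 and 0.55 in the 3 comparisons, Foxp3 minus Cd4 -0.87 with rIL-12 against no leukemia and 0.10 against vehicle, Il10 minus Cd4 -0.52 and 0.13 against no leukemia, and Foxp3 minus CD3 chains 0.60 against no leukemia and -0.12 against vehicle. Without single mice the ranges in the 3 comparisons were 1.61 to 2.28, 2.95 to 3.37 and 0.95 to 1.62 for Il10 minus Foxp3, 0.71 to 1.29, 1.40 to 1.98 and 0.60 to 0.75 for Il10 minus Cd4, -1.31 to -0.61, -1.79 to -1.22 and -0.90 to -0.20 for Foxp3 minus Cd4, and 0.29 to 1.02, -0.26 to 0.26 and -1.06 to -0.33 for Foxp3 minus CD3 chains. Same-numbered mice did not all deviate together (correlations of -0.18 to 0.33), though all 3 pairs of no leukemia and vehicle mice were over 0.1 (0.11 to 0.26); a block cannot change the ratio differences. The median over all probes was 0.05, 0.02 and -0.08 with TMM and 0.15, -0.28 and -0.49 with housekeeping scaling. The 10 housekeeping genes measured had medians of -0.13, 0.36 and 0.48 with TMM, so that scaling to them moves the panel median the other way. Why these genes differed between groups was not tested. Groups of 3 mice limit every comparison, and counts near the viral probe limit Il10 most.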
